A study of Mus musculus with 20 samples.

Results

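The transcripts described here belong to the inflammasome and to the interleukin-1 family of cytokines. They are 10 genes, chosen by name from 2 tables that each list 50573 named genes, and all 10 were found in both tables. By role they are the sensor Nlrp3, the adaptor Pycard (ASC), the inflammatory caspases Casp1 and Casp4, the pore protein Gsdmd, the cytokines Il1a, Il1b and Il18, and the secreted antagonists Il1rn and Il18bp. No measured value entered the choice, and all 10 passed the filter on low values in every comparison below.

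The study compared eosinophils, which are granulocytes resident in the gut wall, and macrophages, which are its tissue phagocytes, between healthy and tumor-bearing mouse colon. Both cell types were sorted by flow cytometry from enzymatically digested colons of C57BL/6 wild-type mice, and this strain, digestion and sort were common to all groups. There were 2 libraries of eosinophils and 5 of macrophages from naive colon, and 7 libraries of eosinophils and 6 of macrophages from tumors of mice that had undergone what the labels call CAC induction. The sources used here do not name the agents of that induction, the ages, the sorting markers or the number of mice behind a library. P-values below therefore measure the spread between libraries, which may be technical.

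RNA was measured by CEL-Seq, which tags and counts the 3′ ends of polyadenylated transcripts. Depth ran from 1477255 to 8520874 reads per library. The labelled cell types were checked against their markers: 8 eosinophil genes summed to 922 to 11000 CPM (reads scaled to a common library total) in the 9 eosinophil libraries and to 6.05 to 36.0 in the 11 macrophage libraries, and 12 macrophage genes summed to 18200 to 29100 in macrophages and to 469 to 1630 in eosinophils. Tumor eosinophil libraries 1, 2 and 3 stood apart in epithelial transcripts. Their 8 epithelial genes summed to 5360 to 6030 CPM against 2020 to 2680 in tumor libraries 4 to 7 and 2210 and 2940 in the naive eosinophil libraries. Mitochondrial transcripts took 25.1, 35 and 35.2% of their reads, against 15.2 to 23.97% in tumor libraries 4 to 7 and 17.91 and 24.55% in the naive ones. In this share library 1 was near tumor library 7 and naive library 2. Among tumor macrophages, libraries 1 and 2, 3 and 4, and 5 and 6 resembled each other more than other pairs did (chi-square per degree of freedom over genes 7.36 to 11.9 within these pairs, 20.2 to 63.5 between them), which still exceeds sampling noise. Results that rest on these libraries are given also without tumor eosinophil libraries 1 to 3, or with tumor macrophage libraries averaged in 3 pairs, both chosen after the values were seen.

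Interleukin-1 alpha and beta act on the same receptor, and the interleukin-1 receptor antagonist, the product of Il1rn, occupies that receptor without signalling. Interleukin-1 beta and interleukin-18 are made as inactive precursors, which caspase-1 cleaves after Nlrp3 and Pycard have assembled into an inflammasome. Caspase-1 and the product of Casp4, which senses cytosolic lipopolysaccharide, also cut gasdermin D, the product of Gsdmd, into a fragment that forms pores in the membrane. The product of Il18bp binds interleukin-18 in solution and blocks it. In phagocytes, transcription of Il1b and Nlrp3 is the priming step, and cleavage of the proteins, which RNA does not measure, is a separate one.

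Upstream sequence is shown for the 6 genes that were called in at least 1 cell type and had a window in RefSeq's table for GRCm38.p6, in which 9 of the 10 genes were found (all but Gsdmd). Each run below is the 250 bases before an annotated start, 5′ to 3′ on the gene's strand, in the order sensor, caspase, cytokines, antagonists. RefSeq's table held 3 windows for Il1rn and 2 each for Nlrp3 and Casp4. The window nearest GENCODE's start was taken, and which start was in use was not tested. RefSeq's start lies 458 bases inside the GENCODE gene for Il18bp and within 21 bases of GENCODE's start for the other 5. Capitals mark motif matches: NF-kB in Nlrp3 and Casp4, TATAAA in Il1a and Il1b, TGANTCA (AP-1) in Il1a and Il1rn, and TTGCNNAA (C/EBP) in Il18bp.
Nlrp3, chr11:59541319-59541568, plus strand: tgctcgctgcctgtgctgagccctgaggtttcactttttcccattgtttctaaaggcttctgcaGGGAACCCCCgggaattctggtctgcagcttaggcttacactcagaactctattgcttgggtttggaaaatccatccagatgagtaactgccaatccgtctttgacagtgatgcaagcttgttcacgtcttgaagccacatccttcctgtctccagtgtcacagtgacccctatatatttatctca
Casp4, chr9:5308599-5308848, plus strand: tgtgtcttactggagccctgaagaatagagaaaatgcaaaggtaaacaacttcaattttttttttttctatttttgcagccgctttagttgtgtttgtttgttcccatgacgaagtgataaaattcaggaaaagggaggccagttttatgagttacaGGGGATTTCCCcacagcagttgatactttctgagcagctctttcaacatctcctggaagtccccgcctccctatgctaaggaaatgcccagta
Il1a, chr2:129309973-129310222, minus strand: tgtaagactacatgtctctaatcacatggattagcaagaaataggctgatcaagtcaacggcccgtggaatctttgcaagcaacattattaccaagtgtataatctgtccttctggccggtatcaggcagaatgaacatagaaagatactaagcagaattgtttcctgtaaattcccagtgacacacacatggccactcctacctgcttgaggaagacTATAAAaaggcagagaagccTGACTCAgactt
Il1b, chr2:129371140-129371389, minus strand: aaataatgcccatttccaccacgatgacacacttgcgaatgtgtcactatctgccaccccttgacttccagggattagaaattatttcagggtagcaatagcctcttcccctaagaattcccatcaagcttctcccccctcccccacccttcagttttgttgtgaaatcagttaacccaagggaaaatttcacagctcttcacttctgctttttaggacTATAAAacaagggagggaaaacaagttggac
Il1rn, chr2:24336610-24336859, plus strand: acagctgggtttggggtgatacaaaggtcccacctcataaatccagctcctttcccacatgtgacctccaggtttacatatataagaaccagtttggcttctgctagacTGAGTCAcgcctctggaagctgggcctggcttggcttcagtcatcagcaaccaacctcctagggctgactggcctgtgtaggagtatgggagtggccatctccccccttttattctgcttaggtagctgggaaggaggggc
Il18bp, chr7:102018233-102018482, minus strand: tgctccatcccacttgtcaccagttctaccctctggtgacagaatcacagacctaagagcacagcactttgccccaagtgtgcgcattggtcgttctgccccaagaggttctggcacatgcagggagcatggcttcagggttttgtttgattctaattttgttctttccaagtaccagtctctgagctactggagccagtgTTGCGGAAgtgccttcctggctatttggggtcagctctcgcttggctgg
Il1a and Il1b share the TATA letters at nearly the same distance from their starts, and Il1a shares AP-1 letters with the Il1rn window shown. Of 32817 windows of this length in the table, 3.90% held the NF-kB motif, 6.75% TGANTCA, 9.57% TTGCNNAA and 7.60% TATAAA. All were searched on both strands except TATAAA, which was searched on the gene's own strand. Pycard (TTGCNNAA, chr7:127993868-127994117) also had a match, and neither TTCNNNGAA (GAS, 7.01% of windows) nor the ISRE letters (TTTC and TTTC with 2 bases between, 2.97%) matched any of the 9 windows. A match describes letters only and says nothing of binding.

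In eosinophils, Nlrp3 and Il18bp were higher in tumors. Of the 10 genes these 2 rose, 0 fell and 8 were not called (limma on log2 of the deposited value plus 1, Benjamini-Hochberg adjusted p under 0.05). Over all 12967 genes tested, 4.61% were called, 2.42% as higher and 2.19% as lower. The median log2 change was 0.49 over the 10 genes and 0.0086 over all genes tested. In Nlrp3 and Il18bp all 7 tumor libraries also lay above both naive libraries, as they did in 7.33% of all genes tested. In 0 of the 10 genes they all lay below, against 9.76% of all genes. Both naive libraries held Il18bp under the filter's minimum of 10, so it entered these counts only through its tumor level. Its call and its separation therefore add no support.

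Nlrp3, the sensor (chr11:59541568-59566956, GRCm38, plus strand), stood at 23.8 and 22.9 normalised reads in the 2 naive eosinophil libraries. In the 7 tumor libraries the lowest value was 248, the median 523 and the highest 884. The groups did not overlap, and the lowest tumor library, number 3, was still far above both naive libraries. The log2 change was 4.32 ± 0.44 (SE), 19.99-fold, with an adjusted p of 0.000902 by limma. In raw reads this was 60 in the naive libraries together and 4415 in the tumor libraries. Nlrp3 was called under each of 17 alternative settings, with log2 changes of 3.85 to 4.80, and without tumor libraries 1 to 3 its change was 4.80 (adjusted p = 4.57e-05 by limma).

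Il18bp, the interleukin-18 antagonist (chr7:102014885-102018690, minus strand), stood at 5.22 and 1.21 normalised reads in naive eosinophils, which is 9 reads and 1 read. Tumor eosinophils ran from 16.6 through a median of 33.5 to 64.2, with libraries 5 and 6 the highest and 1, 2 and 3 the lowest. Both naive libraries were under the filter's minimum of 10, so the gene was tested only because of its tumor level. The log2 change was 3.16 ± 0.63 (adjusted p = 0.0148 by limma). The pooled rate per read sequenced was 8.88 times higher in tumors (95% exact interval 4.76 to 18.7, which covers counting error only). The call was lost without naive library 2, the library with 1 read (2.42, adjusted p = 0.243), and with limma-voom with quality weights (3.10, adjusted p = 0.461). Its 3′ end overlaps that of Numa1 on the opposite strand, and the sources used here do not say whether counting used the strand.

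Il1b, the secreted cytokine (chr2:129364570-129371139, minus strand), was not called in eosinophils, with groups that overlapped through 2 tumor libraries. Naive libraries held 1205 and 3503 normalised reads, and tumor libraries ran from 3105 through a median of 10253 to 13952. Tumor libraries 2 and 3, at 3105 and 3335, lay between the naive values, and the other 5 tumor libraries lay above both, from 6975 upward. The log2 change was 1.87 ± 0.60 (95% interval 0.58 to 3.16, adjusted p = 0.0996 by limma). It passed the threshold under 2 of 17 alternatives. These were without tumor library 2 (2.08, adjusted p = 0.0467) and without tumor libraries 1 to 3 (2.51, adjusted p = 0.00629), the libraries with the most epithelial transcripts. With single libraries left out the log2 change ran from 1.10 to 2.64.

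Il1a, which encodes the alpha form (chr2:129299610-129309972, minus strand), and Il1rn, which encodes the receptor antagonist (chr2:24336853-24351494, plus strand), were abundant in eosinophils of both tissues and were not called. Il1a stood at 1562 and 3709 in naive libraries and ran from 1001 through a median of 2973 to 5663 in tumor libraries. Il1rn stood at 3187 and 6705 in naive libraries and ran from 3649 through a median of 5878 to 8831 in tumor libraries. For both genes the tumor range spanned a naive value, and naive library 2 held far more than library 1. The intervals of the log2 changes were −1.03 to 1.43 for Il1a and −0.70 to 1.141 for Il1rn. With 2 naive libraries, changes within these bounds were not excluded.

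The adaptor, the caspases and the pore protein were not called in eosinophils either. The adaptor Pycard (chr7:127989708-127993867) stood at 105 and 50.7 in naive libraries and at 82.4 to 142 in tumor libraries (log2 change 0.69 ± 0.35, adjusted p = 0.298). The protease Casp1 (chr9:5298517-5307265) stood at 114 and 246 against 113 to 243, and the log2 change was 0.093 ± 0.37 (adjusted p = 0.919). Casp4 (chr9:5308828-5336783) stood at 187 and 306 against 289 to 693. Its log2 change was 0.90 ± 0.39 (adjusted p = 0.220), with the naive maximum above tumor libraries 1 and 3 only. Gsdmd (chr15:75862327-75867408) was close to 201 in both naive libraries and at 127 to 226 in tumor libraries (−0.28 ± 0.29, adjusted p = 0.629, all by limma).

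Il18 (chr9:50554827-50581840, plus strand) divided the tumor eosinophil libraries rather than the groups. Naive libraries held 35.4 and 39.9 normalised reads. Tumor libraries 1, 2 and 3 held 70.5, 97.4 and 116, and libraries 4 to 7 held 22.3 to 38.7, so the libraries with the most epithelial transcripts were those with the most Il18. The log2 change was 0.29 ± 0.63 (adjusted p = 0.840 by limma) over all libraries and −0.45 (adjusted p = 0.657) without libraries 1 to 3. Epithelial cells of the gut are known to express this gene. The part that epithelial RNA has in these values was not tested.

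**Figure D1:**
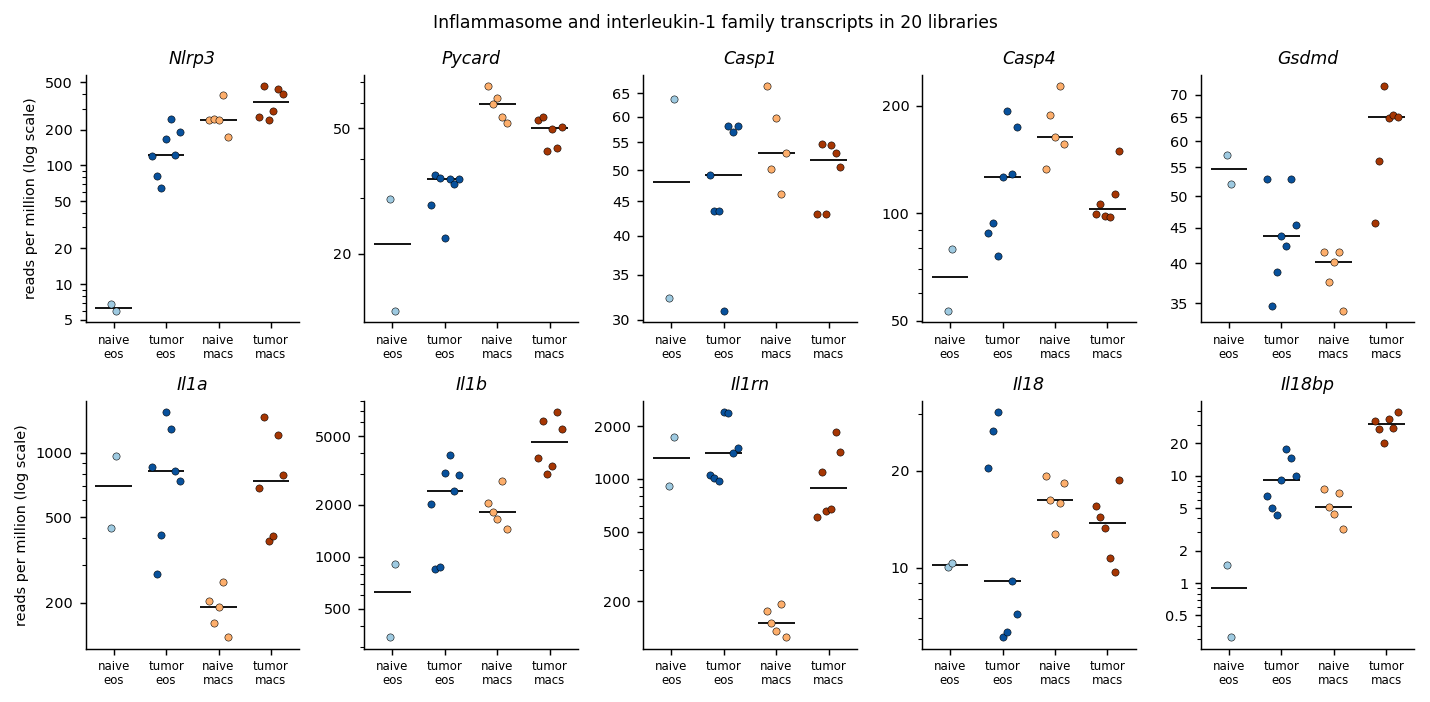
CPM on a joint scale (log axis) for the 10 genes in 20 libraries, 1 point per library and a bar at each group's median, for 2 naive and 7 tumor eosinophil libraries (eos) and 5 naive and 6 tumor macrophage libraries (macs). Nlrp3 stands at 5.95 and 6.76 in naive eosinophils and at 65.0 to 247 in tumor eosinophils, and Il1rn is lowest in naive macrophages, at 125 to 193.

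Genes of the sorted type and of other cell types moved with the eosinophil groups. Of 8 eosinophil genes 3 fell and 0 rose in tumor eosinophils: the surface receptors Siglecf (−1.89, adjusted p = 0.025), Ccr3 (−1.52, adjusted p = 0.0307) and Il5ra (−1.82, adjusted p = 0.03, all by limma). The other 5 were not called. In mean CPM, Prg2 (1945 against 278), Ear6 (187 against 24.8), Epx (50.9 against 1.43) and Prg3 (39.2 against 1.98) were higher in tumor than in naive eosinophils. Alox15 was lower (384 against 993). The median log2 change of the 8 genes was 0.169. Their sum ran from 922 through a median of 1490 to 11000 CPM in tumor libraries, library 4 being the highest, against 2150 and 3370 in the naive ones. The part of this in the results above was not tested. Of 13 neutrophil genes 5 rose and 0 fell in tumor eosinophils. Without Retnlg, which alone held 4870 to 15900 CPM in eosinophil libraries of both tissues, the other 12 summed to 177 and 238 in naive and to 485 to 2030 in tumor eosinophils. Of these 12 genes, 1 (Mpo) had no read in naive eosinophils. The lowest tumor sums, 674 and 485 in libraries 2 and 3, belonged to the libraries with the lowest Nlrp3 (81.3 and 65.0 CPM) and the lowest Il1b (848 and 876). Neutrophils are known to express Il1b, Nlrp3 and Il1rn, and the part of neutrophil RNA in the tumor values was not tested.

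Macrophage genes were higher in tumor eosinophils as well, 4 of 10 tested, with a sum of 852 to 1630 CPM against 469 and 613 in naive libraries. On the joint scale 10 of the 12 macrophage genes stood in tumor eosinophils at under 5% of their tumor macrophage level (median 3.08%, range 1.77 to 21.0%). Nlrp3 stood at 40.9% of its tumor macrophage level and Il18bp at 32.0%. The part of macrophage RNA in the tumor eosinophil values was not tested. In bulk libraries such as these, fewer cells of a type and less RNA per cell cannot be told apart.

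**Figure D2:**
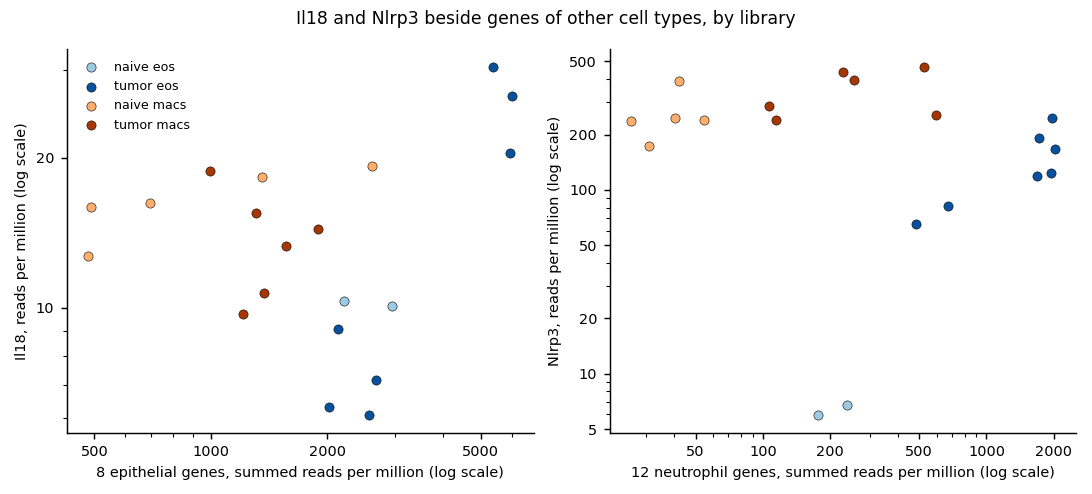
Left, Il18 against the summed level of 8 epithelial genes; right, Nlrp3 against the summed level of 12 neutrophil genes (Retnlg left out), in CPM on log axes, 1 point per library. Tumor eosinophil libraries 1 to 3 lie at 5360 to 6030 CPM of epithelial genes and 20.4 to 30.4 of Il18, and both naive eosinophil libraries lie under 7 CPM of Nlrp3.

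In macrophages, the interleukin-1 cytokines and both antagonists were higher in tumors, while Nlrp3, Pycard, Casp1 and Il18 were not called. Il1a, Il1b, Il1rn, Il18bp and Gsdmd rose, 1 of the 10 genes, Casp4, fell, and 4 were not called. Over all 11520 genes tested, 17.1% were called, 8.50% as higher and 8.59% as lower. The median log2 change was 0.46 over the 10 genes and 0.025 over all genes. For the 5 genes that rose, all 6 tumor libraries lay above all 5 naive libraries, as they did in 5.19% of all genes tested. They all lay below in 0 of the 10 genes, against 5.47% of all genes.

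Il1rn, the receptor antagonist, changed most. Naive macrophage libraries held 829, 648, 630, 842 and 598 normalised reads. Tumor libraries ran from 2799 through a median of 3805 to 7913, the highest being libraries 5 and 6. The lowest tumor library was far above the highest naive one. This was a log2 change of 2.56 ± 0.26, 5.90-fold, with an adjusted p of 8.26e-06 by limma, and 2.58 (adjusted p = 1e-04) with tumor libraries averaged in 3 pairs.

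Il18bp stood at 35.7, 22.1, 20.6, 30.3 and 15.2 normalised reads in naive macrophages and ran from 86.8 through a median of 131 to 165 in tumor macrophages. The groups were separated by more than the naive range. Its log2 change was 2.38 ± 0.23, 5.19-fold (adjusted p = 5.42e-06 by limma), and 2.40 in pairs (adjusted p = 0.000235). Its target cytokine Il18 stood at 90.9, 70.1, 59.2, 69.6 and 88.0 in naive and at 41.4 to 79.4 in tumor macrophages, with overlapping ranges and no call (−0.36 ± 0.20, adjusted p = 0.240).

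Il1a stood at 967, 699, 894, 1099 and 665 in naive macrophages. It ran from 1667 through a median of 3248 to 6337 in tumor macrophages, with libraries 3 and 4 the lowest and 2 and 5 the highest. Il1a had a log2 change of 1.89 ± 0.31, 3.72-fold (adjusted p = 0.000549 by limma). Il1b, already among the abundant transcripts of naive macrophages at 9719, 7852, 7720, 12036 and 7005, ran from 12998 through a median of 20253 to 29327 in tumors. Tumor libraries 3 and 4 were again the lowest, library 3 being just above the highest naive library. The log2 change of Il1b was 1.17 ± 0.23, 2.26-fold (adjusted p = 0.0023). In pairs the changes were 1.93 for Il1a (adjusted p = 0.00194) and 1.19 for Il1b (adjusted p = 0.0123). Il1b is overlapped by Il1bos and Il1a by Gm14023, both on the opposite strand. Without a stated strand setting, reads of these partners cannot be told apart from those of the cytokines where they overlap.

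Casp4 and Gsdmd moved in opposite directions in macrophages. Casp4 stood at 629, 816, 759, 993 and 750 in naive libraries, and tumor libraries ran from 412 through a median of 461 to 633. Tumor library 6, at 633.22, was above naive library 1, at 629.47, and the other 5 tumor libraries lay below all naive ones. Casp4 had a log2 change of −0.72 ± 0.14 (adjusted p = 0.00255 by limma; −0.72 and 0.0216 in pairs). Gsdmd stood at 196, 163, 187, 181 and 164 in naive libraries and ran from 212 through a median of 274 to 309 in tumor libraries, without overlap. Its log2 change was 0.56 ± 0.13 (adjusted p = 0.00641; 0.57 and 0.0387 in pairs).

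The sensor Nlrp3 stood at 1141, 1061, 1108, 1697 and 832 in naive macrophages and ran from 1028 through a median of 1441 to 2017 in tumor macrophages. The ranges overlapped over most of their length, and the log2 change of 0.35 ± 0.20 was not called (95% interval −0.085 to 0.78, adjusted p = 0.270). Pycard ranged over 237 to 323 in the naive libraries and 181 to 245 in those from tumors (−0.36 ± 0.13, adjusted p = 0.0763). Casp1 stood at 201 to 316 and 184 to 236 (−0.22 ± 0.14, adjusted p = 0.301, by limma).

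Of 10 neutrophil genes tested in macrophages 6 rose and 0 fell, and the sum without Retnlg was 25.7 to 54.3 CPM in naive and 107 to 597 in tumor libraries. Tumor libraries 3 and 4 had the lowest of these tumor sums (114 and 107), still above all naive ones. They also had the lowest Il1b among tumor libraries, at 3040 and 3360 CPM, above the naive maximum of 2760. Of 12 macrophage genes 0 rose and 2 fell, with sums of 18200 to 24700 in naive and 20300 to 29100 in tumor libraries. Of 7 monocyte genes 2 rose and 2 fell, with sums of 221 to 349 and 156 to 327. Of 8 dendritic cell genes 5 fell. Of 6 B cell and plasma cell genes 0 rose and 0 fell, but their sums were large. Naive libraries ranged over 5520 to 24300 CPM and tumor libraries over 3010 to 22300, with tumor libraries 3 and 4 the lowest. In naive library 5 and tumor library 2 this sum (21370 and 22330) exceeded that of the macrophage genes (18220 and 20540). In the other libraries it was lower. Of 8 epithelial genes 2 rose and 0 fell (median log2 change 0.855), with overlapping sums of 482 to 2620 in naive libraries and 993 to 1900 in those from tumors. The part of these cells in the result was not tested.

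The tumor effect was compared between cell types in 1 limma model over all 20 libraries, on CPM scaled together. For 4 of the 10 genes the effect differed. The signed log2 change was higher in eosinophils for Nlrp3 and Casp4, and higher in macrophages for Il1rn and Gsdmd. For Casp4 the signs were opposite, 0.90 in eosinophils (not called) and −0.72 in macrophages. For Gsdmd they were opposite too, −0.28 in eosinophils (not called) and 0.56 in macrophages. Over all 11914 genes tested 6.12% were called, 2.31% as higher and 3.81% as lower in eosinophils. The median difference was 0.37 over the 10 genes and −0.10 over all genes. Of all calls 37.7% were higher in eosinophils, or 53.2% with median-of-ratios scaling in place of TMM, which moved the median of all genes to 0.018.

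For Nlrp3 the eosinophil effect exceeded the macrophage effect by 3.72 ± 0.48 on the log2 scale (adjusted p = 6.03e-05), and it was called under each of 29 alternatives, at 3.15 to 4.20. For Il1rn the eosinophil effect was smaller by 2.44, the difference being −2.44 ± 0.50 (adjusted p = 0.00538). This call was lost without naive eosinophil library 2 (−1.92, adjusted p = 0.125) and with limma-voom (−2.40, adjusted p = 0.0611). For Casp4 the difference was 1.5 ± 0.37 (adjusted p = 0.0186), and the call was lost without naive eosinophil library 1 (1.2, adjusted p = 0.0684), in pairs (1.5, adjusted p = 0.0686) and with limma-voom (1.54, adjusted p = 0.113). For Gsdmd it was −0.94 ± 0.26 (adjusted p = 0.0343), and 13 of 29 alternatives lost the call, among them median-of-ratios scaling (−0.81, adjusted p = 0.0693) and leaving out single libraries (adjusted p up to 0.134).

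Differences between the effects were not called for Il1a (−1.80 ± 0.65, adjusted p = 0.101), Il1b (0.59 ± 0.61, adjusted p = 0.62) or Il18bp (0.13 ± 0.52, adjusted p = 0.918). Their 95% intervals were −3.15 to −0.45, −0.68 to 1.85 and −0.94 to 1.19. For Il18bp the estimate turned to −0.50 with a pseudocount of 5. Pycard, Casp1 and Il18 were not called either (0.92, 0.20 and 0.53).

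**Figure D3:**
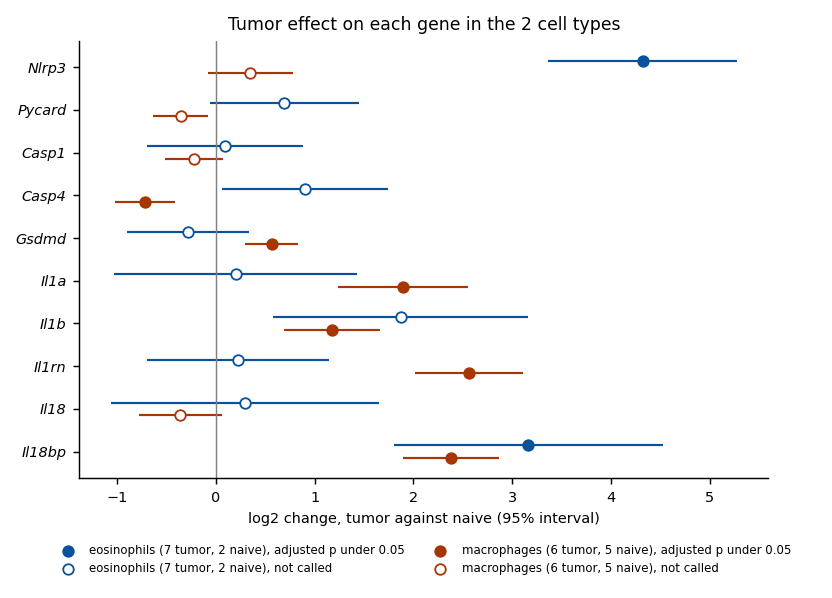
Log2 change from naive to tumor for each gene, with 95% intervals, in eosinophils (7 tumor and 2 naive libraries) and macrophages (6 tumor and 5 naive libraries), filled where the adjusted p was under 0.05. Nlrp3 lies at 4.32 in eosinophils and 0.35 in macrophages, and Il1rn at 0.22 and 2.56.

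Within each tissue the 2 cell types differed in which of these transcripts they held. In naive colon 7 of the 10 genes differed between eosinophils and macrophages, where 36.6% of all genes did (18.6% higher in eosinophils and 18% lower). Il1rn and Il1a were higher in eosinophils and Nlrp3, Il1b, Il18bp, Pycard and Casp4 were lower. Il18bp, at 0.313 and 1.48 CPM in naive eosinophils, was there under this filter's minimum of 5. It was tested only through groups where it was higher, so its place in this count adds no support. Il1rn stood at 906 and 1738 CPM in naive eosinophils and at 125 to 193 in naive macrophages (log2 difference 3.02 ± 0.42, adjusted p = 4.52e-06 by limma). Nlrp3 stood at 5.95 and 6.76 against 173 to 389 (−5.09 ± 0.40, adjusted p = 7.69e-10).

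Il1a was 1.81 ± 0.54 higher in naive eosinophils (adjusted p = 0.0113) and Il1b 1.77 lower (−1.77 ± 0.51, adjusted p = 0.00846). Neither call held without 1 of the naive eosinophil libraries (1.25, adjusted p = 0.204, for Il1a without library 2, and −0.99, adjusted p = 0.241, for Il1b without library 1) or with limma-voom (adjusted p = 0.0615 and 0.0604). Il18bp differed by −1.79 ± 0.43 (adjusted p = 0.00215), a call lost without library 2 (−1.33, adjusted p = 0.0783) and with limma-voom (−2.54, adjusted p = 0.326). Pycard (−1.52 ± 0.26, adjusted p = 5.62e-05) and Casp4 (−1.38 ± 0.31, adjusted p = 0.00116) were also lower in naive eosinophils.

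In tumors 5 of the 10 genes were lower in eosinophils than in macrophages and 0 were higher, where 50.5% of all genes differed, 22.2% being higher and 28.3% lower. They were Nlrp3 (−1.37 ± 0.26, adjusted p = 0.000182), Il18bp (−1.66 ± 0.29, adjusted p = 4.92e-05), Il1b (−1.18 ± 0.34, adjusted p = 0.00584), Pycard (−0.61 ± 0.17, adjusted p = 0.0053) and Gsdmd (−0.46 ± 0.15, adjusted p = 0.0113). Without tumor eosinophil libraries 1 to 3, the calls of Il1b (−0.52, adjusted p = 0.129) and Gsdmd (−0.34, adjusted p = 0.0727) were lost. Without them Il1rn (1.02, adjusted p = 0.00684), Casp4 (0.54, adjusted p = 0.0218) and Il18 (−0.79, adjusted p = 0.00487) passed the threshold. Il1rn, not called over all libraries (0.58, adjusted p = 0.086), passed it under 8 of 22 alternatives. Beside the one above these were median-of-ratios scaling (adjusted p = 0.0461), limma-voom (0.0388) and leaving out tumor eosinophil library 1, 2 or 3 or tumor macrophage library 5 or 6 alone (adjusted p down to 0.0175). The Gsdmd call also ended with tumor macrophages in pairs (adjusted p = 0.0592) and without tumor macrophage library 3 (−0.36, adjusted p = 0.056). These comparisons use the same libraries as those above and are not independent of them.

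The order of the 4 groups differed by gene. Nlrp3 ran from naive eosinophils (5.95 and 6.76 CPM) to tumor eosinophils (65.0 to 247), naive macrophages (173 to 389) and tumor macrophages (240 to 467), and each range overlapped the next except the first. Il1b ran from naive eosinophils (343 and 908) to naive macrophages (1459 to 2756), tumor eosinophils (848 to 3900) and tumor macrophages (3036 to 6888), and the middle 2 groups overlapped almost fully. Il1rn ran from naive macrophages (125 to 193), alone at the bottom, to tumor macrophages (605 to 1859), naive eosinophils (906 and 1738) and tumor eosinophils (970 to 2409), which overlapped one another. Il1a had the same group at the bottom (139 to 252), and its other 3 groups overlapped, at 389 to 1466 in tumor macrophages, 444 and 962 in naive eosinophils and 273 to 1545 in tumor eosinophils. Il18bp ran from naive eosinophils (0.313 and 1.48) to naive macrophages (3.16 to 7.54), tumor eosinophils (4.34 to 17.9) and tumor macrophages (20.3 to 39.2), with overlap of the middle 2 groups only. Casp1 ranges of all 4 groups overlapped, at 30.9 to 66.7 in all.

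Since antagonist and cytokine compete at 1 receptor, their reads were also set against each other within each library, where the library's scaling cancels. The value is a ratio of reads, not of molecules or proteins, and its shift between groups carries the comparison. Naive eosinophils held 2.64 and 1.91 Il1rn reads per Il1b read. Tumor eosinophils held 0.505 to 1.19 (median 0.607), below both naive libraries, with libraries 2 and 3 the highest. Naive macrophages held 0.0853, 0.0825, 0.0817, 0.0700 and 0.0854 and tumor macrophages 0.163 to 0.270 (median 0.209), above all naive ones. The mean ratio was thus 0.333 times the naive one in tumor eosinophils and 2.65 times the naive one in tumor macrophages, opposite shifts whose difference was not tested.

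Il1a reads per Il1b read moved likewise, from 1.30 and 1.06 to 0.248 to 0.502 in eosinophils and from 0.0891 to 0.116 up to 0.122 to 0.240 in macrophages. The means shifted by factors of 0.320 and 1.69. Il1rn reads per Il1a read did not separate the eosinophil groups, at 2.04 and 1.81 in naive and 1.23 to 3.69 in tumor libraries. In macrophages they were 0.705 to 0.927 in naive and 0.751 to 1.82 in tumor libraries, which overlap.

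In macrophages, Il18bp reads per Il18 read were 0.172 to 0.436 in naive libraries and 1.53 to 3.15 in those from tumors, without overlap. In eosinophils they were 0.148 and 0.0303 in naive libraries, 0.143 to 0.319 in tumor libraries 1 to 3 and 1.39 to 2.84 in tumor libraries 4 to 7. The eosinophil values rest on 10 naive Il18bp reads in all, and the tumor libraries divided as they did for Il18 itself.

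**Figure D4:**
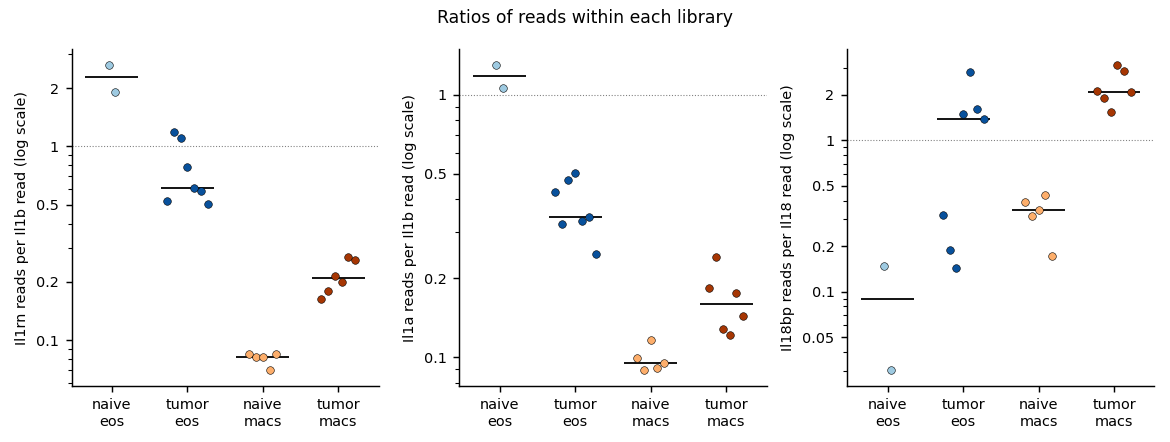
Reads of one gene per read of another within each library (log axes, 1 point per library, bars at medians), for Il1rn per Il1b, Il1a per Il1b and Il18bp per Il18; the dotted line marks equal reads. Il1rn per Il1b lies at 1.91 and 2.64 in naive eosinophils and 0.505 to 1.19 in tumor eosinophils, while naive macrophages lie at 0.070 to 0.0854 and tumor macrophages at 0.163 to 0.270.

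Other genes of the pathway were counted from 3 lists. Of all genes tested, 4.61% were called in eosinophils and 17.1% in macrophages, and the counts below are to be read against these shares. The first list held 23 other inflammasome genes, all in the tables; of 19 tested in eosinophils 1 rose and 0 fell, and of 16 tested in macrophages 2 rose and 2 fell. The second held 14 ligands and receptors, all in the tables; of 8 tested in eosinophils 1 rose and 1 fell, and of 7 in macrophages 0 rose and 1 fell. Of 13 genes of receptor signalling, 0 were called in eosinophils and 1 rose and 1 fell in macrophages. The median log2 changes of the 3 lists were 0.10, 1.02 and 0.012 in eosinophils and 0.080, −0.37 and 0.38 in macrophages.

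Mefv, which encodes the inflammasome sensor pyrin, was the inflammasome gene called in eosinophils. It stood at 13.9 and 32.6 normalised reads in naive and at 74.7 to 523 in tumor libraries, with libraries 2 and 3 the lowest. The log2 change was 3.46 ± 0.71 (adjusted p = 0.0176 by limma). The call was lost without naive library 1 (2.88, adjusted p = 0.0964) or 2 (4.05, adjusted p = 0.104) and with limma-voom (3.56, adjusted p = 0.201). In macrophages Mefv was not called (0.31, adjusted p = 0.317). The difference of the effects was 2.89 ± 0.68 (adjusted p = 0.0131), and was lost in pairs (adjusted p = 0.0533), without naive eosinophil library 1 (2.41, adjusted p = 0.0522) and with limma-voom (3.24, adjusted p = 0.269).

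In macrophages the inflammasome genes that rose were Naip2, a sensor of bacterial secretion proteins (0.56 ± 0.18, adjusted p = 0.0477), and the channel Panx1 (0.98 ± 0.29, adjusted p = 0.0274). Naip2 was called under 5 of 19 alternatives and Panx1 under 10 of 19. In pairs neither was (adjusted p = 0.182 and 0.132), and Panx1 was also not called with edgeR (0.75, adjusted p = 0.0811), with limma-voom (0.78, adjusted p = 0.0616) or without any 1 of naive libraries 2, 3 and 5 and tumor libraries 5 and 6 (adjusted p = 0.0517 to 0.0644). Reads of Naip2 may be shared with its near-identical relatives. Txnip, a redox protein reported to bind Nlrp3, fell from 359 ± 87.2 (SD, n = 5) to 130 ± 30.3 (n = 6), by 1.47 on the log2 scale (adjusted p = 5.3e-05). Dfna5, the older name of gasdermin E, fell by 1.86 (adjusted p = 0.00306). In eosinophils Dfna5 stood at 69.6 and 96.6 in naive and 2.15 to 37.6 in tumor libraries, without overlap. There it was not called (−2.15 ± 0.77, adjusted p = 0.143 by limma), so a lower tumor level was not particular to macrophages.

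Among ligands, Il1f9, the older name of interleukin-36 gamma, rose in tumor eosinophils from 5.39 ± 4.34 (SD, n = 2) to 118 ± 65.4 (n = 7), a log2 change of 4.13 ± 0.70 (adjusted p = 0.00647 by limma; 0.345 with limma-voom). These are 11 naive and 882 tumor reads. Both naive libraries, at 2.32 and 8.45, were under the filter's minimum of 10, so Il1f9 was tested only because of its tumor level and had to differ. In macrophages Il1f9 missed the filter and was not tested. There it stood at 0 to 5.35 normalised reads in naive and 5.73 to 29.7 in tumor libraries, without overlap, so a higher tumor level was not particular to eosinophils. Il1rl1, the receptor of interleukin-33, fell in tumor eosinophils from 2721 ± 1154 to 564 ± 133 (−2.24 ± 0.33, adjusted p = 0.00351), and leaving out naive library 2 ended the call (−1.79, adjusted p = 0.0696). In macrophages it fell from 102 ± 32.2 to 55.2 ± 27.1 (−0.95 ± 0.30, adjusted p = 0.0392), and that call was lost in pairs (adjusted p = 0.0987) and under 10 of the other alternatives.

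The signalling receptor Il1r1 was near 0 in all 4 groups, at means of 0.605 to 6.36 normalised reads, and was not tested. The decoy receptor Il1r2, which binds interleukin-1 without signalling, was abundant, at 1504 ± 41.5 in naive and 3030 ± 1003 in tumor eosinophils and at 2007 ± 254 and 2985 ± 858 in macrophages. It was not called in either (0.94 ± 0.36, adjusted p = 0.163, and 0.53 ± 0.18, adjusted p = 0.0597). In eosinophils it passed the threshold under 1 of 17 alternatives, without tumor libraries 1 to 3 (1.32, adjusted p = 0.0179), and in macrophages under 3 of 19. The co-receptor Il1rap, the interleukin-18 receptor Il18r1, the adaptor Myd88, the sensors Nlrc4 and Aim2 and the Nlrp3 partner Nek7 were not called in either cell type.

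Of the signalling genes, Irak3, a kinase relative that restrains the receptor pathway, rose in tumor macrophages from 92.3 ± 16.9 to 221 ± 66.5 (1.21 ± 0.21, adjusted p = 0.00101 by limma). In eosinophils it stood at 244 ± 34.5 in naive and 798 ± 366 in tumor libraries without a call (1.56 ± 0.46, adjusted p = 0.0778). It was called under 2 of 17 alternatives, 1 of them without tumor libraries 1 to 3 (2.09, adjusted p = 0.00366). Peli1, a ubiquitin ligase of the pathway, fell in macrophages from 703 ± 166 to 363 ± 45.4 (−0.93 ± 0.16, adjusted p = 0.000777).

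Genes with the most similar pattern were ranked by Pearson's r of log2(CPM + 1) over the 20 libraries among 10897 genes, as a description of libraries that fall into 4 groups and share them. For Nlrp3 they were Cd14 (0.967), Scimp (0.965), Tnfrsf1a (0.961), Slc15a3 (0.955) and Gbp3 (0.949). For Il1b they were Clec7a (0.936), Tnfaip2 (0.928), Snx18 (0.926), Slc15a3 (0.921) and Clec5a (0.910). Cd14, an example, stood at means of 16.6, 274, 582 and 1300 CPM in naive and tumor eosinophils and in naive and tumor macrophages, the same order as Nlrp3. For Il1rn they were Slc7a11 (0.961), Abtb2 (0.959), Alas1 (0.955), Lmnb1 (0.948) and Gcnt2 (0.943), each lowest in naive macrophages. For Il18 the highest values were lower, from Uri1 (0.815), Hadh (0.781), Upp2 (0.770) and Angptl2 (0.764) to Ipo8 (0.748).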

How the data were processed

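For each cell type the authors deposited a normalised signal, gene read counts divided by a size factor for each library. HTSeq 0.6.1, TopHat2 2.1.0 and DESeq2 1.14.1 are among the tools in the submitters' processing notes, with build GRCm38.p5. Per the labels' protocols each sample was prepared as 3 technical replicates. The sources used here do not say how these were combined or whether counting used the strand.

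Each library's values were whole multiples of 1 step, so read counts were recovered (at least 99.99% of 374526 non-zero values whole within 0.1 read). Of the entries, 27 have a number in place of a name. These were left out and took up to 0.1323% of the reads in a library.

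The 2 tables were scaled separately, so each cell type was tested within its own table. Genes were kept that reached 10 in at least 2 eosinophil or 5 macrophage libraries, the smaller group's size. limma 3.58.1 in R 4.3.3 (two-sided, eBayes with a trend) was applied to log2(value + 1), a scale that understates changes of low genes, with Benjamini-Hochberg adjustment over all genes tested. A gene is called, and said to have risen or fallen, where that adjusted p was under 0.05. Between cell types, recovered reads were scaled together by TMM (edgeR 4.0.16) to CPM, kept at 5 or more in at least 2 libraries, and fitted as log2(value + 1) over all 4 groups. The fits were tested on simulated data.

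The alternatives were pseudocounts of 5 and 0.5, no filter, TMM or median-of-ratios scaling, edgeR's quasi-likelihood test and limma-voom on the recovered reads, the replicate number as a block, and each library left out. The members, lists and tests were chosen with earlier results of these data known. The genes named are all members, the genes called from 3 pathway lists, 9 pathway genes in any case, and the 5 genes most like Nlrp3, Il1b, Il1rn and Il18. Coordinates are from GENCODE M21 (GRCm38), in which all 10 members matched by symbol.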

Additional observations from a re-analysis of the deposited data

Results flagged for a closer look

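The tumor effect differed between eosinophils and macrophages in a test of the difference itself (limma, Benjamini-Hochberg adjusted) for 5 of the genes named. The log2 difference was 3.72 for Nlrp3, 1.5 for Casp4, −0.94 for Gsdmd, −2.44 for Il1rn and 2.89 for Mefv, and the report gives the settings that ended 4 of these calls.

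Of the ratios looked at, 2 had all tumor libraries below the naive ones in eosinophils and above them in macrophages. Il1rn per Il1a, Il18bp per Il18 and Casp4 per Casp1 did not. Mean Il1rn reads per Il1b read in tumors were 0.333 times the naive value in eosinophils and 2.65 times in macrophages. Mean Il1a reads per Il1b read were 0.320 and 1.69 times the naive value. These differences were not tested. Casp4 reads per Casp1 read were 1.24 and 1.65 in naive and 1.75 to 4.08 in tumor eosinophils. In macrophages the groups overlapped, at 1.99 to 4.93 in naive and 1.79 to 2.97 in tumor libraries. Among single genes tested, 9.76% had all tumor libraries below the naive ones in eosinophils and 5.19% had them above in macrophages.

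Casp4 in tumor macrophage library 6, at 633.22 normalised reads, lay apart from the other 5 libraries of its group (412 to 483). Of 30 groups of 4 to 10 libraries looked at, chance alone sets about 1 in 20 apart in this way.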

How the results depend on the processing

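Nlrp3 in eosinophils and Il1a, Il1b, Il1rn, Il18bp and Casp4 in macrophages were called under every alternative run. With 2 naive eosinophil libraries, eosinophil calls depended on single libraries; where 1 was left out, the lone library was assumed to vary like the tumor ones. Left out in turn, libraries moved the eosinophil count of called genes from 598 to 93 to 951 and of members from 2 to 1 to 3, and the count for the difference of effects from 729 to 137 to 1787 and of members from 4 to 2 to 5.

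With limma-voom, called genes numbered 197 in eosinophils (1 member), 136 for the difference (1 member) and 2287 for naive eosinophils against naive macrophages (4 members, against 4355 and 7). Without a filter the difference had 469 calls. With tumor macrophage libraries in pairs, it had 271 calls (2 members) and macrophages 1133 against 1968.

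Signs of uncalled genes turned as follows. In eosinophils Txnip (0.10) became −0.074 with edgeR, Il18r1 (0.064) −0.12 with limma-voom, and without tumor libraries 1 to 3 Il18 (0.29) became −0.45 and Peli1 (−0.25) 0.0048. With single libraries left out, Casp1 ran from −0.46 to 0.65, Il1a from −0.42 to 0.82, Il1rn from −0.32 to 0.76, Txnip from −0.79 to 0.99, Peli1 from −0.56 to 0.047 and Il18r1 from −0.075 to 0.26. For the difference, Il18bp (0.13) became −0.50 with a pseudocount of 5 and Il18 (0.53) −0.19 without tumor eosinophil libraries 1 to 3. With single libraries left out, Casp1 ran from −0.30 to 0.74, Il1b from −0.14 to 1.34 and Il18bp from −0.28 to 0.62. Between tumor eosinophils and macrophages, Casp1 (−0.057) became 0.044 with median-of-ratios scaling, 0.035 with edgeR and 0.053 without tumor eosinophil libraries 1 to 3. Il18 (−0.10) became 0.22 with edgeR and 0.15 with limma-voom, and Il1a (0.0093) became −0.036 in pairs. With single libraries left out these ran from −0.055 to 0.089 for Casp1, −0.26 to 0.094 for Il18 and −0.12 to 0.30 for Il1a, and Casp1 between naive cell types from −0.74 to 0.29. The causes were not tested.

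The labels do not say that replicate numbers pair the libraries, and they were not used as pairs. Deviations of same-numbered libraries correlated at 0.16 and 0.17 in the 2 eosinophil pairs, both best with their own number, which are too few to decide. They correlated at −0.33 to 0.078 in macrophages (0 of 5 best with their own number), at −0.10 to 0.21 between tumor cell types (3 of 6) and at 0.019 and 0.038 between naive cell types (0 of 2). With the number as a replicate block, called genes were 1143 in eosinophils and 1230 in macrophages. In the block fit Txnip was −0.16, Il18r1 −0.57, Casp1 −0.024, Il1a −0.48 and Il1rn −0.33 in eosinophils, Il18 was 0.018 between tumor cell types, and Gsdmd in macrophages was not called (0.55, adjusted p = 0.0534).

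Reads were few for Il18bp, 10 in naive eosinophils, and at 0 to 4 per naive macrophage library for Il1f9, which limits both.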
